A study of Mus musculus with 6 samples.

Results

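Nfe2l2, the gene for the transcription factor NRF2, and 9 of its antioxidant target genes were described in liver RNA from Townes sickle cell mice. The 10 genes were taken by symbol from a fixed list (Nfe2l2, Nqo1, Gclc, Gclm, Gsr, Txnrd1, Srxn1, Slc7a11, G6pdx and Pgd), and all 10 were found among the 24421 genes of the count tables. Of these, 9 had enough reads to be tested, and Slc7a11 did not. The tested animals, SS, have the strain label Hbatm1(HBA)Tow, Hbbtm2(HBG1,HBB*)Tow and carry only the sickle form of human beta-globin. The controls, AS, share Hbatm1(HBA)Tow and have, at the beta locus, Hbbtm2(HBG1,HBB*)Tow on one chromosome and Hbbtm3(HBG1,HBB)Tow, a normal human beta-globin allele, on the other. Both genotypes have human alpha-globin and human fetal gamma-globin genes knocked in at the mouse globin loci, were 7 months old and gave total liver RNA, with 3 libraries per genotype. No treatment is given for either. AS mice make sickle globin too, so the comparison is of homozygous with heterozygous animals and has no animal free of the sickle allele. Whether each replicate is its own animal is not given in the labels, and all p-values therefore rest on the spread between these libraries, which may be technical.

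NRF2 is held in the cytoplasm by KEAP1, which passes it to a CUL3 ubiquitin ligase for destruction. Oxidants and electrophiles, including those released when heme and iron are set free, modify KEAP1, and NRF2 then enters the nucleus, pairs with a small MAF protein and binds the antioxidant response element. BACH1, a repressor that heme inactivates, competes for the same element. NRF2 is mostly controlled as a protein, so the RNA level of Nfe2l2 is not a measure of its activity, and its targets are commonly read in its place. In the liver these targets make glutathione, return oxidised glutathione and thioredoxin to their reduced forms, repair peroxiredoxins and supply NADPH.

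None of the 9 tested genes was called at an adjusted p under 0.05 by edgeR's quasi-likelihood test, against 0.967% of all 12622 genes tested (0.911% called higher and 0.0555% called lower in SS). The same count was 0 by DESeq2 and 0 by limma-voom. At an unadjusted p under 0.05 the count was 1, G6pdx (11.1% of the 9, against 12.7% of all genes), and it was 1 by each of the other tools too. Nfe2l2 itself averaged 73.0 ± 4.74 reads scaled to library size (CPM) in SS and 68.4 ± 24.5 CPM in AS (SD, n = 3). Of the 9 genes, 7 had fitted values above 0 (56.3% of all genes did) and 2 below, with a median log2 fold change of 0.09, against 0.08 over all genes tested. The fitted 95% intervals of 8 genes lay inside a 2-fold change in either direction, and that of G6pdx did not. Fewer lay inside in some fits: 4 when AS replicate 2 was omitted, 5 for AS replicate 3, 6 for SS replicate 1, 5 with AS replicates 2 and 3 summed and 4 with library totals alone, a scaling that moved the median of all genes to 0.36.

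Gene reads per library ran from 6670011 to 13700194. Hepatocyte markers summed to 96453 to 135780 CPM in SS and 114600 to 164670 CPM in AS, as in liver, though 1 of the 12, Ass1, had only 1 to 5 reads a library. The most similar pair was AS replicates 2 and 3, at a chi-square of 3.98 per gene, where the remaining pairs had 27.9 to 170. A value of 1 would be sampling noise. The pair was kept as separate libraries, though a value above 1 does not show that they come from separate animals. AS replicate 1 and SS replicate 3 stood apart for several of these genes, as given below. Reads without an annotated gene made up 53.9% of the records in SS replicate 1 and 40.7% to 43.8% in the other 5 libraries.

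**Figure D1:**
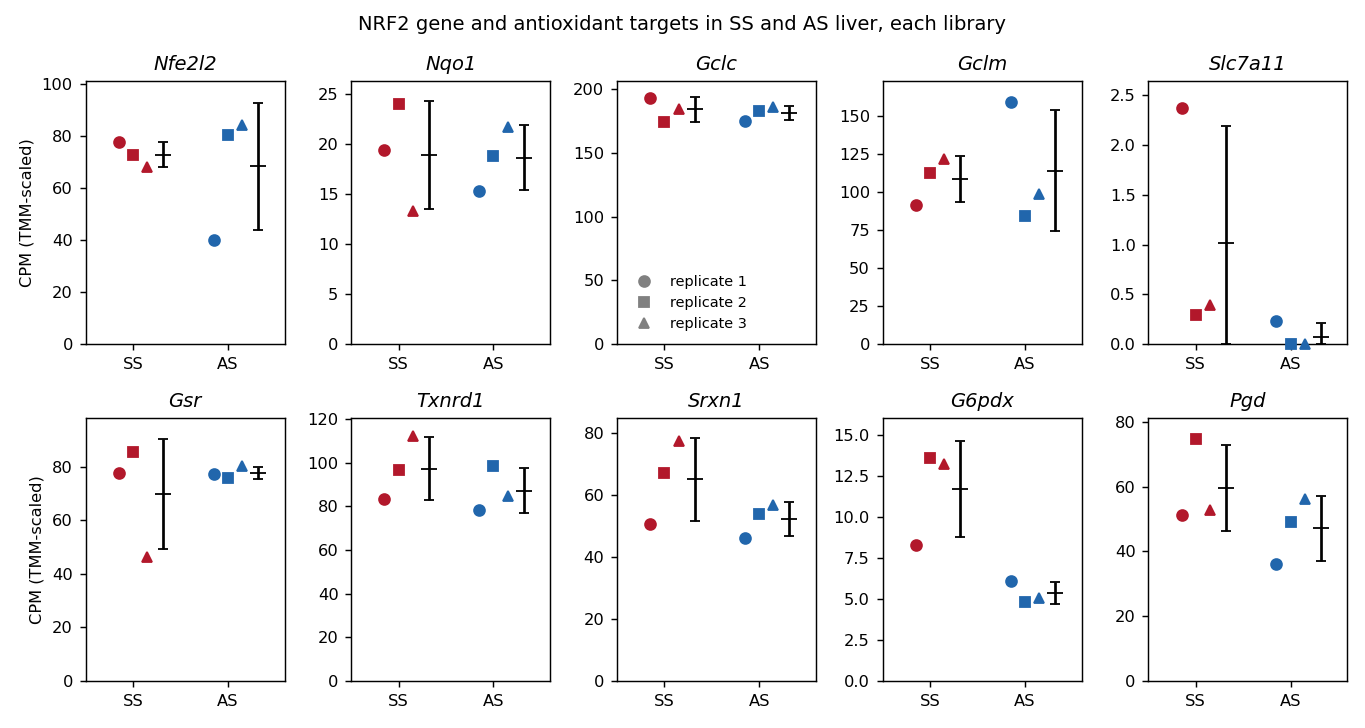
CPM (vertical axes, from 0, scaled by trimmed-mean factors) of the 10 genes in each SS and AS library. Symbols give the replicate, and the black bar beside each group is the mean with its SD, drawn to 0 where the SD exceeds the mean. G6pdx and the barely detected Slc7a11 have all 3 SS libraries above all 3 AS libraries, and the other 8 genes overlap. G6pdx is 1 of the 9 tested genes (11.1%), and 12.1% of all genes tested separate in this direction. For Slc7a11 the nearest libraries are SS replicate 2 with 4 reads and AS replicate 1 with 2 reads.

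The 5 promoter windows are shown because they hold the letters that the antioxidant response element or the related AP-1 site would have, next to the genes whose values follow. They are the 250 bases before the transcription start in RefSeq (GRCm38.p6), on the strand of the gene. The promoter table held 8 of the 10 genes, in 11 windows, without Gclc and Gsr. Capitals mark TGACNNNGC, a strict form of the core of the response element, on either strand. In Srxn1, which lacks this strict form, they mark the AP-1 motif TGANTCA. The windows are chr2:75704664-75704913 (minus strand) for Nfe2l2, chr3:122245307-122245556 (plus strand) for Gclm, chr10:82858956-82859205 (plus strand) for the second listed start of Txnrd1, chr2:152105274-152105523 (plus strand) for Srxn1 and chrX:74428881-74429130 (minus strand) for G6pdx.
Nfe2l2: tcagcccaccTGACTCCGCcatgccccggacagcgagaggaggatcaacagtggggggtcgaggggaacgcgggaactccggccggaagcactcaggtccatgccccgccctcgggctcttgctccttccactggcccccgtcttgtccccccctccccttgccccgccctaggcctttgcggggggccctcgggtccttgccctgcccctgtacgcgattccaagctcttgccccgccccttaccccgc
Gclm: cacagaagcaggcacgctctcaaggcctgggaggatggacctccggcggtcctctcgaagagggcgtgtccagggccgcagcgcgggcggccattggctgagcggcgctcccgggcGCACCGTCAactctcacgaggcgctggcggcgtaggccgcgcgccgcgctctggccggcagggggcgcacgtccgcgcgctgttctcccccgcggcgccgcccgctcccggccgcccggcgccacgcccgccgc
Txnrd1: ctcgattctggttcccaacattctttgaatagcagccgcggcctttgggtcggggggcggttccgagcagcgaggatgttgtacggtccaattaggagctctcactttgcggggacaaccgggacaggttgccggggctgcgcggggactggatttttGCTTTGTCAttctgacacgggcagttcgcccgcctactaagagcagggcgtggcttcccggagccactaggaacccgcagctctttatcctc
Srxn1: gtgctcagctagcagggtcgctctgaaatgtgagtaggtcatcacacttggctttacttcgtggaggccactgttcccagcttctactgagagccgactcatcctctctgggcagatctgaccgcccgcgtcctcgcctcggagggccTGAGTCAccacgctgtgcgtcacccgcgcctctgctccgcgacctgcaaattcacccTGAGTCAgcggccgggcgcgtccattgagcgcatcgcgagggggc
G6pdx: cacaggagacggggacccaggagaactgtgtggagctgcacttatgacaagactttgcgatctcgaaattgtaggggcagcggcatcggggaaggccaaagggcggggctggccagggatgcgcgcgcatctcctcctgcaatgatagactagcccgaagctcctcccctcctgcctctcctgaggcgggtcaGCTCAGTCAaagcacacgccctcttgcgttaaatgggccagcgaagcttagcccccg

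The first capital letter lies 240 bases before the start in Nfe2l2, 134 in Gclm, 92 in Txnrd1 and 57 in G6pdx. The strict core was in 4 of the 11 windows, from 4 of the 8 genes, and in 10.2% of all 32851 windows of the table. The looser pattern TGANNNNGC was in 7 of the 11 windows, from 6 genes, and in 35.2% of all windows. Srxn1 had AP-1 letters starting 102 and 45 bases before its start, and 6.75% of all windows hold the AP-1 motif. Those at 45 bases also begin a match to the looser pattern of the response element. These genes are known as targets of NRF2, so a higher share is no finding. A match is a run of letters, and elements farther away, such as the well known enhancer elements of Nqo1, lie outside the window.

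Nfe2l2 (chromosome 2, 75675513 to 75704641, mm10) had 77.7, 73.0 and 68.2 CPM in SS replicates 1, 2 and 3. The AS libraries had 40.2, 80.7 and 84.4 CPM. The SS libraries lie close together and within the AS range, where replicate 1 is the lowest of all 6. The log2 fold change was 0.09 (SE 0.295, 95% interval -0.56 to 0.75, edgeR adjusted p = 0.914). Without AS replicate 1 it was -0.19, since the other AS libraries average 82.5 CPM.

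The partners and brakes of NRF2 did not pass the test either, with 0 of 15 tested called by edgeR and 0 at an unadjusted p under 0.05, and 0 called by DESeq2 and by limma-voom. Keap1 averaged 60.4 ± 4.33 CPM in SS and 62.3 ± 5.98 CPM in AS (log2 fold change -0.04, SE 0.22, edgeR adjusted p = 0.949). Bach1 averaged 32.5 ± 19.8 CPM in SS and 25.8 ± 11.1 CPM in AS. Its log2 fold change was 0.33 (SE 0.444, edgeR adjusted p = 0.774), and -0.30 without SS replicate 3, which had 55.1 CPM. Gsk3b, a kinase that marks NRF2 for another ubiquitin ligase, had the lowest p of the list, with 15.7, 22.9 and 53.5 CPM in SS and 16.1, 21.7 and 19.6 CPM in AS. SS replicate 3 alone lies outside the AS range by a wide margin, and the adjusted p by edgeR was 0.510. The list had 8 fitted values above 0 and 7 below, with a median of 0.02.

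Glutathione is built by glutamate-cysteine ligase, whose catalytic and modifier subunits are Gclc and Gclm, from cysteine that SLC7A11 can bring in as cystine. Gclc (chromosome 9, 77754535 to 77794485) had 193, 174 and 185 CPM in SS. The AS libraries had 175, 183 and 186 CPM. This is the steadiest of the 10 genes, with a full overlap of the groups and a fitted log2 difference of 0.02 with 95% limits of -0.48 and 0.53 (SE 0.228, edgeR adjusted p = 0.980).

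Gclm (chromosome 3, 122245557 to 122270732) had 91.7, 112 and 122 CPM in SS. In AS it had 159, 84.2 and 98.9 CPM, so that AS replicate 1, lowest in Nfe2l2, is the highest of all libraries in Gclm. The log2 fold change was -0.07 (SE 0.286, edgeR adjusted p = 0.935) and 0.24 without AS replicate 1. Small parts of its exons (4.71% and 3.88% of their length) overlap the noncoding gene Gm17494 on the other strand and the pseudogene Gm6061. Per length of exon, Gclc exceeded Gclm by 3.52, 2.59 and 2.53 times in SS and by 1.84, 3.62 and 3.14 times in AS. The lowest ratio is that of AS replicate 1, and the groups overlap.

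Slc7a11 (chromosome 3, 49892526 to 50443614), the cystine carrier, is hardly expressed in resting hepatocytes, which make cysteine from methionine. It had 18, 4 and 5 reads in SS and 2, 0 and 0 reads in AS, too few for the test. Summed by group the reads were 27 in SS and 2 in AS, a ratio of 10.7 after scaling, with an exact binomial 95% counting interval of 2.69 to 93.0. SS replicate 1 holds most of them. Without it the reads were 9 in SS and 2 in AS, and the ratio 4.59 (0.951 to 43.7). These intervals cover counting error alone. With no filter on low counts the edgeR adjusted p was 0.475 (0.0632 unadjusted).

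Gsr, Txnrd1 and Srxn1 return oxidised thiols to use. Gsr (chromosome 8, 33652523 to 33698163), glutathione reductase, had 77.7, 85.4 and 46.3 CPM in SS, against 77.4, 75.7 and 80.1 CPM in AS. Only SS replicate 3 departs from a narrow band that holds the other 5 libraries. The log2 fold change was -0.16 (SE 0.268, edgeR adjusted p = 0.832), and 0.06 without SS replicate 3.

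Txnrd1 (chromosome 10, 82833951 to 82897712), the cytosolic thioredoxin reductase, a selenoprotein, had 83.3, 96.7 and 112 CPM in SS. AS replicates had 78.3, 98.7 and 84.7 CPM. SS replicate 3 is highest and AS replicate 1 lowest, and the rest overlap, with a log2 fold change of 0.16 (SE 0.234, edgeR adjusted p = 0.797).

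Srxn1 (chromosome 2, 152105516 to 152111376), sulfiredoxin, which restores peroxiredoxins that peroxide has over-oxidised, had 50.7, 67.1 and 77.3 CPM in SS. In AS it had 46.2, 54.0 and 56.7 CPM. SS replicates 2 and 3 lie above every AS library and SS replicate 1 lies among them. Its fitted difference, 0.32 on the log2 scale with an SE of 0.244 and 95% limits of -0.22 and 0.86 (edgeR adjusted p = 0.607), kept its sign in all 16 alternative settings, at 0.09 to 0.59, without being called in any.

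Nqo1 (chromosome 8, 107388225 to 107403206), a quinone reductase and the most used readout of NRF2 in mouse liver, had 19.4, 24.0 and 13.3 CPM in SS. Values in AS were 15.3, 18.8 and 21.8 CPM. SS libraries are both the highest and the lowest, and the log2 fold change was 0.02 (SE 0.303, 95% interval -0.65 to 0.69, edgeR adjusted p = 0.987).

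G6pdx and Pgd encode the pentose phosphate enzymes that make NADPH, the electron source for glutathione and thioredoxin reductase. G6pdx (chromosome X, 74409483 to 74429194), glucose-6-phosphate dehydrogenase, had 8.31, 13.6 and 13.2 CPM in SS. In AS it had 6.10, 4.83 and 5.07 CPM. Every SS library exceeds every AS library, which 12.1% of all genes tested also showed in this direction (9.04% in the other). The means were 11.7 ± 2.94 CPM in SS and 5.34 ± 0.676 CPM in AS (SD, n = 3), a 2.19-fold difference (log2 fold change 1.13, SE 0.345, 95% interval 0.37 to 1.90) that was not called, with an edgeR adjusted p = 0.195 (0.00765 unadjusted). The adjusted p was 0.116 by DESeq2 and 0.244 by limma-voom, and 0.0922 to 0.570 over all 16 alternatives, in which the log2 fold change stayed between 1.00 and 1.42.

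The exons of G6pdx share 418 bases, or 13.6% of their length, with Ikbkg on the other strand, and the strand setting of the counting was not given in the sources used here. Ikbkg had 523, 987 and 1334 reads in SS and 369, 378 and 823 reads in AS, and its part in the G6pdx values was not tested. The retrotransposed copy G6pd2 had 0 reads in all 6 libraries.

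Pgd (chromosome 4, 149149991 to 149166771), 6-phosphogluconate dehydrogenase, had 51.2, 74.8 and 52.8 CPM in SS. Values in AS were 36.0, 49.1 and 56.1 CPM. The lowest value is AS replicate 1 and the highest SS replicate 2, and the groups overlap (log2 fold change 0.34, SE 0.266, edgeR adjusted p = 0.611). Per length of exon, G6pdx stood at 0.340, 0.380 and 0.524 of Pgd in SS and 0.354, 0.206 and 0.189 of Pgd in AS. AS replicate 1 thus lies among the SS libraries in this ratio.

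**Figure D2:**
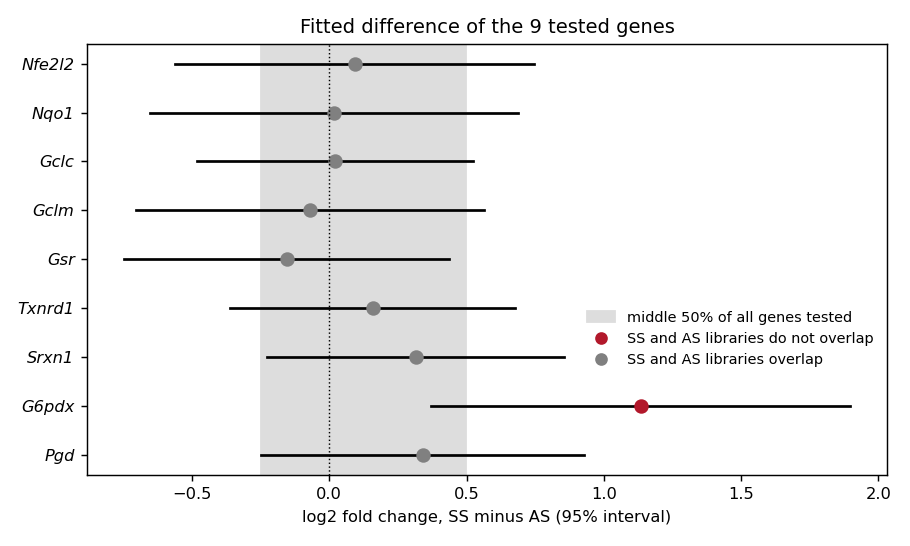
Fitted log2 fold change, SS minus AS (horizontal axis), of the 9 tested genes, with lines for the 95% interval of the edgeR fit and a grey band for the middle 50% of all genes tested (-0.25 to 0.50). G6pdx, at 1.13, is the gene whose libraries do not overlap and whose interval leaves out 0.

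Levels of different genes were compared as CPM per kilobase of exon. In SS the order was Gclc (48.8 ± 2.56), Gsr (25.4 ± 7.52), Srxn1 (23.1 ± 4.77), Nfe2l2 (19.2 ± 1.25), Gclm (17.3 ± 2.44), Txnrd1 (13.7 ± 2.03), Nqo1 (12.2 ± 3.46), Pgd (9.24 ± 2.04), G6pdx (3.80 ± 0.954) and Slc7a11 (0.0732 ± 0.0845; SD, n = 3 each). In AS it was Gclc (48.1 ± 1.48), Gsr (28.2 ± 0.812), Srxn1 (18.5 ± 1.93), Gclm (18.1 ± 6.29), Nfe2l2 (18.03 ± 6.46), Txnrd1 (12.3 ± 1.47), Nqo1 (12.0 ± 2.08), Pgd (7.30 ± 1.58), G6pdx (1.73 ± 0.219) and Slc7a11 (0.00551 ± 0.00955). Gclc stood above every other gene in both groups, and G6pdx and Slc7a11 stood below the others without overlap. Neighbours from Gsr to Pgd overlapped in SS, and neighbours from Srxn1 to Nqo1 overlapped in AS, so their order is not resolved. Exon lengths count every annotated transcript, which lowers the value of genes with long alternative ends.

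**Figure D3:**
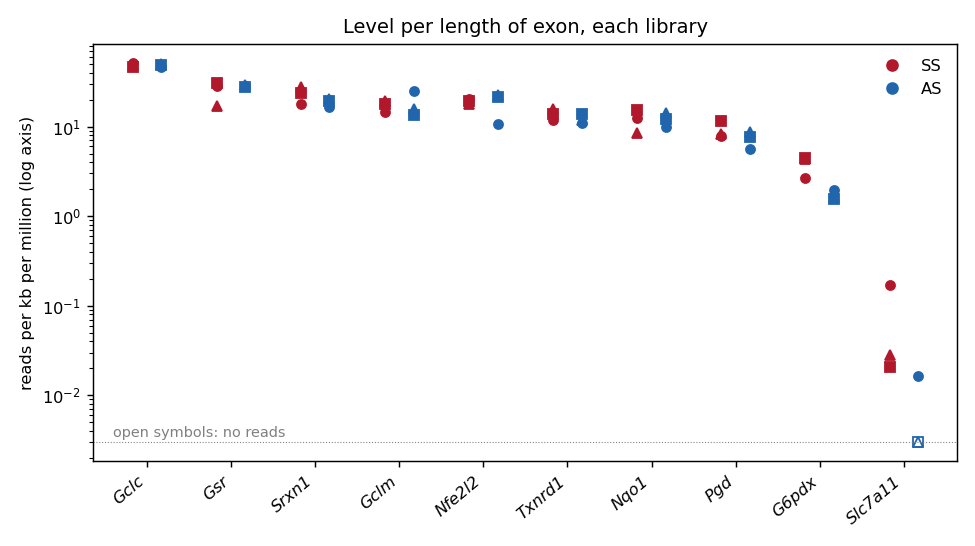
CPM per kilobase of exon (vertical log axis) in each library, SS left of AS for each gene, ordered by the AS mean. Symbols give the replicate (circle 1, square 2, triangle 3), and open symbols at the dotted line are AS libraries with 0 reads of Slc7a11, which lies far below the other 9 genes.

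Likeness between genes was measured as the root-mean-square difference of their standardised log2 CPM over the 6 libraries, where 0 is the same profile. Of the 36 pairs among the 9 tested genes, Txnrd1 and Srxn1 were the most alike (0.454), followed by Nqo1 and Gsr (0.562). Nfe2l2 and Gclm were the least alike (1.78). Among 9813 other genes of at least 5 CPM, those nearest to Nfe2l2 were Fhod1, an actin regulator (0.116), Adrb3, an adrenergic receptor (0.120), and Chrna4, a nicotinic receptor subunit (0.122), each lowest in AS replicate 1. Nearest to Nqo1 were Tbce, a tubulin folding factor (0.166), Soat2, which esterifies cholesterol (0.187), and Xaf1 (0.210). Nearest to G6pdx were C6, a complement protein (0.106), Tsc22d4 (0.110) and Cd84, a leukocyte surface receptor (0.125). With 6 libraries and so many genes such likeness is a description.

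The wider NRF2 network was read from lists chosen with earlier results of these data known, so their counts and medians are descriptions. Of 30 other NRF2 target genes tested, 1 rose and 0 fell (0.911% of all genes were called higher and 0.0555% lower). The list had 19 fitted values above 0 and a median of 0.20. At an unadjusted p under 0.05 there were 9 members, all higher in SS (9.12% of all genes were). The one that rose was Ftl1, the ferritin light chain that stores iron, with 2147, 5356 and 1926 CPM in SS and 760, 521 and 420 CPM in AS. Its log2 fold change was 2.47 (SE 0.438, edgeR adjusted p = 0.0339), and the call ended without SS replicate 2 or any single AS replicate. Ferritin light chain has many near-identical copies in the mouse genome, so its count is uncertain. The list median was -0.02 without SS replicate 2, where that of all genes was 0.10. By DESeq2 5 of the 30 were called, all higher, and by limma-voom 0.

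Hmox1, heme oxygenase, which NRF2 and BACH1 control together, had 70.1, 351 and 215 CPM in SS, against 49.2, 62.2 and 57.8 CPM in AS. The groups do not overlap, which 12.1% of all genes tested also showed in this direction, and SS replicate 1 lies close to AS. The log2 fold change of 1.91 (SE 0.472) missed the threshold with an edgeR adjusted p = 0.111, but was called by DESeq2 (adjusted p = 0.00270) and without SS replicate 1 (edgeR adjusted p = 0.0152). Over the 16 alternatives the adjusted p ran from 0.000119 to 0.331. Txn1, thioredoxin, averaged 320 ± 103 CPM in SS and 451 ± 25.6 CPM in AS, and Prdx1, a peroxiredoxin, averaged 1392 ± 491 CPM in SS and 1852 ± 199 CPM in AS. Their log2 fold changes were -0.49 and -0.41 (edgeR adjusted p = 0.509 and 0.595).

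Fitted values below 0 were in the majority among glutathione and thioredoxin genes, and among hepatocyte markers too (9 of 11 tested below 0, median -0.39). The part of that shift in these lists was not tested. Of 18 tested genes of glutathione synthesis, use and breakdown, 13 were below 0, with a median of -0.37 (-0.23 when SS replicate 3 was omitted, and -0.24 when AS replicate 1 was). By edgeR 1 of the 18 was called (0.967% of all genes were). That gene was Gpx3, the secreted glutathione peroxidase, which rose, with 19.9, 36.4 and 24.6 CPM in SS and 7.49, 3.06 and 4.25 CPM in AS (log2 fold change 2.44, SE 0.395, edgeR adjusted p = 0.0209). Its call ended without SS replicate 2, AS replicate 2 or AS replicate 3. At an unadjusted p under 0.05, 3 of the 18 were lower (3.58% of all genes were) and 1 was higher (9.12% of all genes were). Of 14 thioredoxin and peroxiredoxin genes, 13 were below 0, with a median of -0.45 (-0.27 without SS replicate 3), and 0 were called by edgeR, DESeq2 or limma-voom, while 3 had an unadjusted p under 0.05, all lower (3.58% of all genes were).

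Prdx6, a peroxiredoxin that also reduces lipid peroxides, had the lowest p of those, with 510, 544 and 334 CPM in SS and 739, 771 and 722 CPM in AS (edgeR adjusted p = 0.335). All 4 superoxide dismutase and catalase genes were below 0 (median -0.55, and -0.34 without SS replicate 3), with 0 called by edgeR, DESeq2 or limma-voom. At an unadjusted p under 0.05, 2 were lower (3.58% of all genes were). Cat, catalase, had 1869, 1633 and 1577 CPM in SS and 2319, 3087 and 3015 CPM in AS (log2 fold change -0.73, edgeR adjusted p = 0.286), and it was called lower (-0.80, edgeR adjusted p = 0.0124) in the fit omitting both AS replicate 1 and SS replicate 3. Its adjusted p over the 16 alternatives was 0.0124 to 0.679. The fit omitting both libraries kept AS replicates 2 and 3, the most similar pair, as its only AS libraries. It called 662 of all genes, against 122 in the main fit. SS replicate 3 was the lowest library in the summed CPM of the glutathione list (4643, against 8121 and 8256 in the other SS libraries and 9895 to 12107 in AS). It was also the lowest for thioredoxin genes (2642, against 4067 and 4852 in the other SS libraries and 4957 to 5873 in AS) and for the superoxide dismutase and catalase genes (2259, against 3456 and 3497 in the other SS libraries and 4659 to 4894 in AS).

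Of 10 other pentose phosphate and NADPH genes, 0 were called by edgeR, and 0 at an unadjusted p under 0.05, with 7 below 0 and a median of -0.17 (-0.31 to -0.04 with 1 library omitted, and 0.11 with library totals alone). Me1, malic enzyme, had the lowest p, at a log2 fold change of -0.51 (edgeR adjusted p = 0.459). Fatty acid synthesis genes, whose demand for NADPH G6pdx and Pgd serve in fed liver, had 7 of 10 below 0 with a median of -0.33. None was called by edgeR, DESeq2 or limma-voom, and 2 were lower at an unadjusted p under 0.05 (3.58% of all genes were). Omitting 1 library moved that median between -0.70 (AS replicate 1) and -0.09 (AS replicate 3), with -0.10 for AS replicate 2 and -0.20 for SS replicate 1. The list also held Pklr, liver pyruvate kinase, a glycolytic enzyme that does not use NADPH, and Pklr had its lowest p. Pklr had a log2 fold change of -0.77 (edgeR adjusted p = 0.241), and -1.04 with an edgeR adjusted p of 0.0137 in the same smaller fit (0.0137 to 0.637 over the 16 alternatives). The summed CPM of the list was 3992 to 6662 in SS and 6121 to 6321 in AS replicates 2 and 3, but 1799 in AS replicate 1.

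ATF4 also drives Slc7a11 in starved or stressed cells. Of its 11 tested targets, 2 rose (0.911% of all genes were called higher), with a list median of -0.04. They were Atf3, a stress transcription factor (log2 fold change 3.47, SE 0.667, edgeR adjusted p = 0.0444), and Asns, asparagine synthetase (2.21, SE 0.438, edgeR adjusted p = 0.0472). With 1 library omitted at a time, Atf3 was still called only without SS replicate 3, and Asns only without SS replicate 1. By limma-voom neither was called (adjusted p = 0.235 for Atf3 and 0.154 for Asns). The 6 subunits of the phagocyte NADPH oxidase, which makes superoxide, all had fitted values above 0, with a median of 0.83 (0.53 without SS replicate 2). None was called by edgeR, DESeq2 or limma-voom. At an unadjusted p under 0.05, 4 were higher (9.12% of all genes were). Among them was Cybb, the catalytic subunit (40.7 ± 12.3 CPM in SS and 20.4 ± 3.32 CPM in AS, log2 fold change 0.995, edgeR adjusted p = 0.175).

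**Figure D4:**
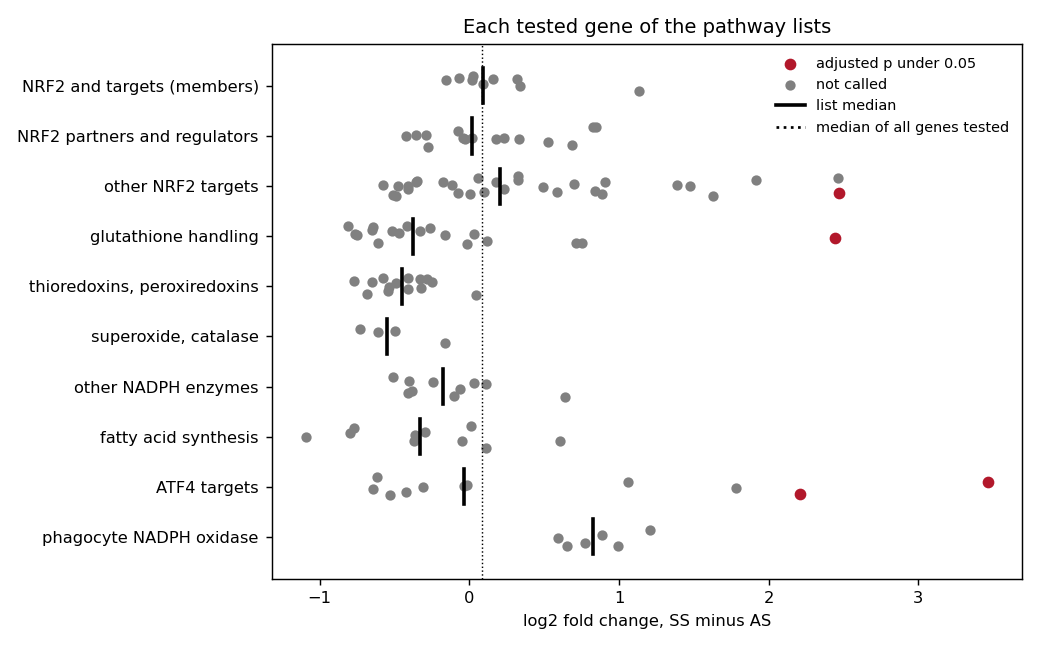
Fitted log2 fold change, SS minus AS (horizontal axis), of each tested gene in the lists around NRF2. Points are genes, red where called, thick lines are list medians and the dotted line is the median of all genes tested (0.08). The 9 NRF2 genes centre on that line at 0.09, thioredoxin genes at -0.45 and oxidase subunits at 0.83.

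Markers of other cells moved with genotype beside G6pdx, the member at the lowest level among those tested. In bulk liver, fewer cells of a type and less RNA per cell cannot be told apart. Of all genes tested, 0.911% were called higher in SS, the share that belongs beside each count of calls below. Recruited macrophage markers summed to 363 to 381 CPM in SS and 144 to 151 CPM in AS, and 6 of 13 rose, led by Gpnmb (log2 fold change 5.97), Trem2 (2.92) and Mmp12 (3.50). Erythroid precursor markers summed to 372 to 680 CPM in SS and 71.6 to 91.4 CPM in AS, with 6 of 14 tested called higher, among them Alas2, the heme synthesis enzyme of red cell precursors (3.14), and Bpgm (2.52), and Gata1 had no read in AS. Dividing cell markers summed to 95.4 to 165 CPM in SS and 9.24 to 13.1 CPM in AS, with 7 of 10 called higher, led by Cdc20 (3.78), Mki67 (3.94) and Top2a (3.78). Neutrophil markers summed to 25.5 to 88.0 CPM in SS and 3.93 to 6.56 CPM in AS, with Mpo (5.62) and Ngp (4.53) of 6 tested called higher, and Elane and Ltf had no read in AS. No marker of these lists was at 0 in all 6 libraries. Those with few AS reads could pass the read filter through SS libraries alone. That fixes the direction of such a call as higher, so these calls are descriptions. Leaving out 1 library left 1 to 5 macrophage, 3 to 6 erythroid and 2 to 6 dividing cell and 0 to 2 neutrophil calls, and limma-voom called 0, 3, 1 and 0 markers of the 4 lists in that order. Smaller sets of calls were Cd24a (3.03) and Prom1 (3.56) of 7 bile duct markers and Lum (1.86) and Col1a2 (1.65) of 11 stellate and fibroblast markers. Cd24a was called in all 6 fits that omit a library, Prom1 in 3, and Lum and Col1a2 in 2 each (lost without SS replicate 2 or any AS replicate). Kupffer cell markers summed to 1008 to 2507 CPM in SS and 809 to 1095 CPM in AS, with 0 of 11 called by edgeR. At an unadjusted p under 0.05, 5 of them were higher (9.12% of all genes were). No hepatocyte marker was called by edgeR (0 of 11 tested) or limma-voom, and 1, Cyp2e1, had an unadjusted p under 0.05 and was called lower by DESeq2 (log2 fold change -0.86, adjusted p = 0.0271). In the fit without AS replicate 1 and SS replicate 3, which called 662 of all genes, 4 hepatocyte markers were called lower and 1 higher. The part of these cells in the G6pdx values, and in those of Hmox1, Ftl1 and the oxidase subunits, was not tested.

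**Figure D5:**
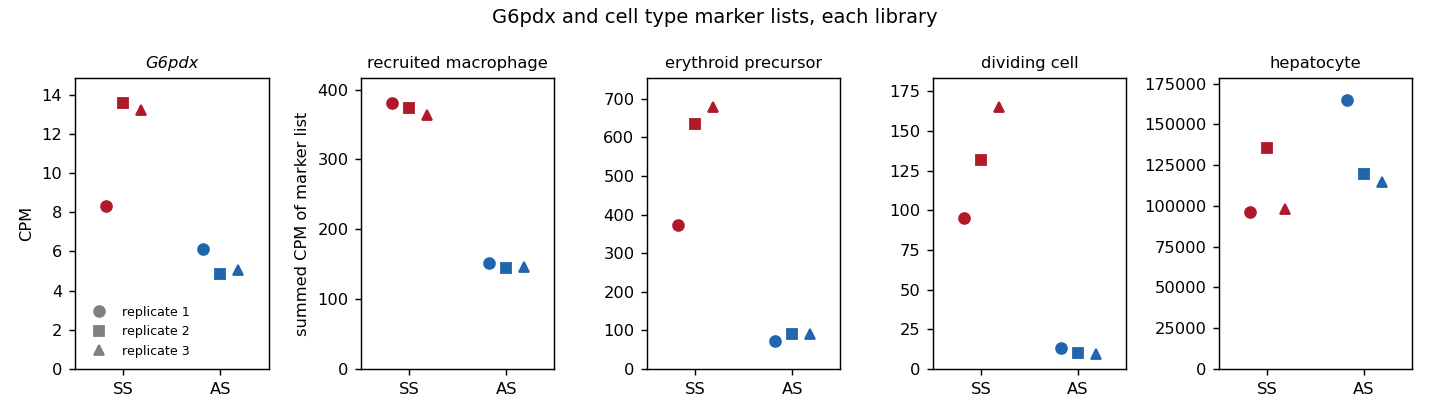
G6pdx CPM (left) and the summed CPM of marker lists (other panels) in each SS and AS library, all axes from 0, with symbols for the replicate. SS replicate 1 is the lowest SS library for G6pdx and for erythroid precursor, dividing cell and hepatocyte markers. It is the highest SS library for recruited macrophage markers. Hepatocyte sums overlap between genotypes.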

How the data were processed

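Total liver RNA was sequenced from 3 SS and 3 AS samples. The authors deposited raw read counts per gene symbol, 1 table a sample. HISAT2, HTSeq and the build mm10 are named in the submitters' processing notes; their versions, the annotation, strand and read filters are not given in the sources used here. The 5 counter lines for records outside genes stayed out of library sizes and tests. On average they held 46.9% (no gene), 15.4% (several alignments), 5.05% (not aligned), 3.26% (low quality) and 0.384% (ambiguous) of SS records, and 41.6%, 20.1%, 3.72%, 2.71% and 0.527% of AS records.

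Genes with few reads were removed by filterByExpr, leaving 12622. A gene was kept with at least 10 reads, scaled to depth, in at least 3 of the 6 libraries, and 15 reads in all. It could thus pass through SS libraries alone or AS libraries alone. The SS minus AS contrast was fitted with edgeR (version 4.0.16, R 4.3.3): TMM scaling, robust quasi-likelihood test, Benjamini-Hochberg adjustment over all genes tested, and a call at an adjusted p under 0.05. The procedure was tested on simulated counts, where it missed some of the changed genes and made some false calls. CPM is counts per library scaled with the same factors, SEs come from the F statistic, and values are means ± SD of 3 libraries. Coordinates and exon lengths came from GENCODE M21 on the same build, and promoters from RefSeq (GRCm38.p6).

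The 16 alternatives changed the scaling (median-ratio, upper-quartile, or library totals alone), the filter (none, or 1 CPM in 3 libraries), the model (replicate block, DESeq2 1.42.0, limma-voom with limma 3.58.1) or the libraries (each omitted, AS replicate 1 with SS replicate 3 omitted, AS replicates 2 and 3 summed). The members, the lists and the last 2 of these were chosen with earlier results of these data known. Named were all 10 members, Keap1, Bach1, Hmox1, Txn1 and Prdx1, up to 3 called members of each list or the one with the lowest p, and the 3 genes most like Nfe2l2, Nqo1 and G6pdx. Ass1, Gata1, Elane and Ltf were named for their low counts. The values of 1 marker that this rule names are not reported here.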

Additional observations from a re-analysis of the deposited data

How the results depend on the processing

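No NRF2 member was called under any of the 16 alternatives. Over all genes, 122 were called, against 217 with no filter, 460 with a replicate block, 453 by DESeq2, 31 by limma-voom, 662 without AS replicate 1 and SS replicate 3 together, 31 with AS replicates 2 and 3 summed, and 22 to 99 with 1 library left out. The labels do not say whether the replicate numbers pair the samples. Deviations of same-numbered libraries correlated at 0.0497, -0.120 and 0.193 across genes, and SS replicate 2 correlated best with AS replicate 1 (0.241). These deviations were taken within groups of 3 libraries, which ties the correlations to each other, so they cannot decide whether samples were paired. Among the members and the pathway genes named, the block changed the call of Hmox1 (edgeR adjusted p = 0.000119), and it took the calls among the 30 other NRF2 targets to 6. The calls of Ftl1 and Gpx3 were also lost by limma-voom (adjusted p = 0.0524 each) and with AS replicates 2 and 3 summed (edgeR adjusted p = 0.168 and 0.116). Those of Atf3 and Asns were lost by limma-voom (adjusted p = 0.235 and 0.154) and with AS replicates 2 and 3 summed (edgeR adjusted p = 0.134 and 0.200), and that of Asns also with median-ratio factors (0.0521) and without AS replicate 1 and SS replicate 3 (0.0552).

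Several log2 fold changes changed sign in some settings, among them those of Gsk3b (0.69) and Bach1 (0.33), and the cause was not tested. Nfe2l2 was -0.13 with both AS replicate 1 and SS replicate 3 left out, and -0.19 to 0.27 with 1 library left out. Nqo1 was -0.018 with median-ratio factors, -0.0036 with no filter, -0.0076 with the replicate block, -0.018 by DESeq2, -0.019 by limma-voom and -0.21 to 0.21 with 1 library left out. Gclc was -0.022 with median-ratio factors, -0.00029 with no filter, -0.022 by DESeq2, -0.0086 with both libraries left out and -0.019 to 0.047 with 1 left out. Gclm was 0.23 with library totals alone, 0.15 with both left out and -0.27 to 0.24 with 1 left out. Gsr was 0.095 with library totals alone, 0.064 with both left out and -0.34 to 0.0598 with 1 left out. Txnrd1 was -0.027 with both left out. Keap1 was 0.22 with library totals alone and -0.13 to 0.012 with 1 left out. Bach1 was -0.57 and Gsk3b -0.088 with both left out, and Bach1 was -0.30 to 0.69 with 1 left out. Srxn1, G6pdx and Pgd stayed above 0 throughout.

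With 3 libraries per genotype, the 95% intervals of the 8 uncalled genes other than G6pdx reach at most 1.90-fold, so smaller differences are not resolved. Slc7a11 is limited by its reads.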
